A study of Mus musculus with 6 samples.

Results

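The Slc25 family of mitochondrial carriers was followed by RNA sequencing in 3T3-L1 cells before and after their conversion into fat cells. Members were all rows of the deposited count table named Slc25a followed by a number, 47 of 43760 rows. Day 7 libraries came from wild-type 3T3-L1 cells given an adipogenic mixture of IBMX, insulin, dexamethasone and rosiglitazone (spelled roziglitazone in the labels), with 3 libraries. Day 0 libraries came from the same wild-type line harvested without differentiation, again with 3 libraries. The line is a clonal mouse fibroblast line grown in culture, so neither variation between animals nor the other cell types of fat tissue enter the comparison. Differentiation, exposure to the mixture and time in culture changed together and cannot be told apart.

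Mitochondrial carriers are small proteins, nearly all of the inner mitochondrial membrane, and each lets a particular set of metabolites, nucleotides, ions or cofactors cross a barrier that is closed to most solutes. In fat cells the family is best known for the citrate carrier, which brings out of the mitochondrion the citrate from which cytosolic acetyl-CoA and then fatty acids are built. Other members exchange ADP for ATP, import phosphate, carry acylcarnitines to be oxidised, move redox equivalents in the malate-aspartate shuttle, or deliver iron, glutathione and coenzymes.

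The proximal promoters of 4 members are shown because 3 of them belong to the members with the largest increases and the fourth to the member with the largest decrease. Each window runs from 250 bases before to 50 bases after the RefSeq start on GRCm38.p6, in the direction of transcription, and capitals mark the motifs searched on both strands. These were CCAAT, the box bound by NF-Y, GGGCGG, the GC box, AGGTCA, a half-site of nuclear receptors, CACGTG, an E-box, TCACNCCAC, a sterol regulatory element of the type bound by Srebf factors, and the core bound by Nrf1, given by name alone. The windows are Slc25a34 at chr4:141623785-141624084 on the minus strand, Slc25a10 at chr11:120491587-120491886 on the plus strand, Slc25a1 at chr16:17928170-17928469 on the minus strand and Slc25a24 at chr3:109122899-109123198 on the plus strand.
Slc25a34: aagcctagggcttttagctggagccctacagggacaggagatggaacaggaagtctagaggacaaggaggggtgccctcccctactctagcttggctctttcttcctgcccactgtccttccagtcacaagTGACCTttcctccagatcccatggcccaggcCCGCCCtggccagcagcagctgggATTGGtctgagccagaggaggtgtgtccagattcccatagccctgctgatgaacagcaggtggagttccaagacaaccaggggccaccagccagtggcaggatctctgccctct
Slc25a10: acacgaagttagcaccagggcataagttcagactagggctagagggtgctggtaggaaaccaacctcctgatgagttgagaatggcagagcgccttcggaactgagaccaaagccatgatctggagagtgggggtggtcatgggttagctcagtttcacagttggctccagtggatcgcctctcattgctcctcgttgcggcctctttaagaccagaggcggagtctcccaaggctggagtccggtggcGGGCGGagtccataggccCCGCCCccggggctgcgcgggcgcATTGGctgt
Slc25a1: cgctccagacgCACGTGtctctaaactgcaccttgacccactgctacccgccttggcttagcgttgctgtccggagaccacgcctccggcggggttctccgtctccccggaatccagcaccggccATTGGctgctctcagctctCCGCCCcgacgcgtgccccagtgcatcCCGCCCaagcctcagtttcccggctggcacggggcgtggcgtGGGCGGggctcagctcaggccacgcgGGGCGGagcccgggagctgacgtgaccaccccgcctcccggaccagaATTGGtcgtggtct
Slc25a24: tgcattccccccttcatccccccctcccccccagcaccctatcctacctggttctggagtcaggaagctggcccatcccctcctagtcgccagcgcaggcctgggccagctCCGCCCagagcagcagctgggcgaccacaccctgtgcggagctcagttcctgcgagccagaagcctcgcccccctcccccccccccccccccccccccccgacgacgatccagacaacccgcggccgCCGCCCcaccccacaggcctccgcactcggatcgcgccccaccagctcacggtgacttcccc
The window of Slc25a34 held 1 CCAAT box, 1 GC box and 1 nuclear receptor half-site, all in reverse orientation, 64, 88 and 119 bases before the start. It held 1 CpG at a GC content of 59.0%, the fewest CpGs of the 46 member windows, whose median was 15. The Slc25a1 window held 2 CCAAT boxes, 4 GC boxes and 1 E-box, that of Slc25a10 held 1 CCAAT box and 2 GC boxes, and that of Slc25a24 held 2 GC boxes and none of the other motifs.

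RefSeq windows were found for 36 of the 47 members, 46 windows in all since some genes have several starts. Members without a matched window included Slc25a2, Slc25a26, Slc25a27, Slc25a32, Slc25a35, Slc25a37, Slc25a41, Slc25a44, Slc25a46 and Slc25a51. GC boxes stood in 82.6% of member windows and in 35.7% of all 32851 RefSeq windows of this length. Median GC content was 59.4% over member windows and 52.7% over all windows, so the GC box share is given beside a difference in base composition. CCAAT boxes stood in 47.8% of member windows and 37.4% of all windows, E-boxes in 17.4% and 7.15%, and nuclear receptor half-sites in 8.7% and 16.3%. The sterol element stood in 2.17% of member windows, 1 window of Slc25a18, and 1.24% of all windows. The Nrf1 core stood in 4.35% of member windows and 4.6% of all windows. A match is a string of letters in the window and says nothing of binding.

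Depth was 7655822 to 16987076 counts per day 7 library and 10805962 to 14132016 per day 0 library, of which 14069.8 to 37170 and 10393.8 to 14150.8 fell on the family. Whether libraries of a day came from separate cultures is not in the labels, so p-values measure only how far these libraries varied, and that variation may be technical. Fat cell markers rose in 8 of 8, with a summed level of 12300 to 15200 CPM at day 7 against 502 to 544 CPM at day 0, where CPM is the count level scaled to library size with TMM factors. Of these, Adipoq, Plin1, Cidec, Slc2a4 and Cfd passed the filter on low counts only through day 7, so their direction was fixed. Fibroblast and preadipocyte markers fell in 7 of 7 tested, to 1780 to 2860 CPM at day 7 against 6920 to 7880 CPM at day 0. Markers of cycling cells fell in 6 of 6, to 35.8 to 66.5 CPM at day 7 against 183 to 201 CPM at day 0, and their part in the results on carriers was not tested. Macrophage and endothelial markers stayed at or under 2.02 CPM in sum in every library, and the muscle factors Myod1 and Myog had no counts. The muscle marker list nevertheless summed to 20.7 to 25.8 CPM at day 7 against 2.46 to 3.48 CPM at day 0, nearly all of it Des, the intermediate filament desmin and the 1 marker of 4 that was tested, which was higher; its part in the results was not tested. Brown or beige fat cell markers, of which 3 of 6 were tested and all 3 were higher, summed to 16.8 to 46.7 CPM at day 7 against 9.12 to 10.3 CPM at day 0, most of it Ppargc1a, with Ucp1 at 0. Cox8b and Elovl3, the other markers tested, had no counts at day 0 and passed the filter only through day 7. In bulk RNA, fewer cells of a type and less RNA per cell cannot be told apart. The third day 7 column stood apart from the other day 7 libraries on the second axis of a multidimensional scaling plot, at 1.81 against -0.62 and -0.99, and values without it, or ranges that include them, are given where they change a member's call or direction.

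Most carriers rose, and few fell. Of the 47 members 38 passed the filter on low counts, and 24 of these (63.2%) were higher at day 7, where 30.8% of all 12354 genes tested were higher (threshold of 0.05 on the adjusted p of the quasi-likelihood test in edgeR, with Benjamini-Hochberg adjustment over all genes). Only 4 of 38 (10.5%) were lower, where 29.2% of all genes were lower, and 10 did not pass the threshold. In either direction 73.7% of tested members and 60.0% of all genes were called. The day 7 and day 0 libraries did not overlap for 31 of 38 members (81.6%) and for 68.3% of all genes. The median log2 fold change was 1.02 over the tested members and 0.02 over all genes.

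Changes of at least 2-fold past the threshold were upward for 20 of the 38 members (52.6%), against 16.0% of all genes, and downward for 1 member (2.63%), against 17.7% of all genes. Slc25a34 passed the filter only through its day 7 counts, so it had to differ. With libraries scaled by total counts alone, 22 members were higher and 4 lower, while the share of called genes that were higher was 36.9% instead of 51.3% and the median over all genes, on the log2 scale, was -0.21. Counts of each substrate group given below are to be read beside the shares over all genes tested, 30.8% higher and 29.2% lower. The members that were not tested are accounted for further on, with their neighbours.

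**Figure D1:**
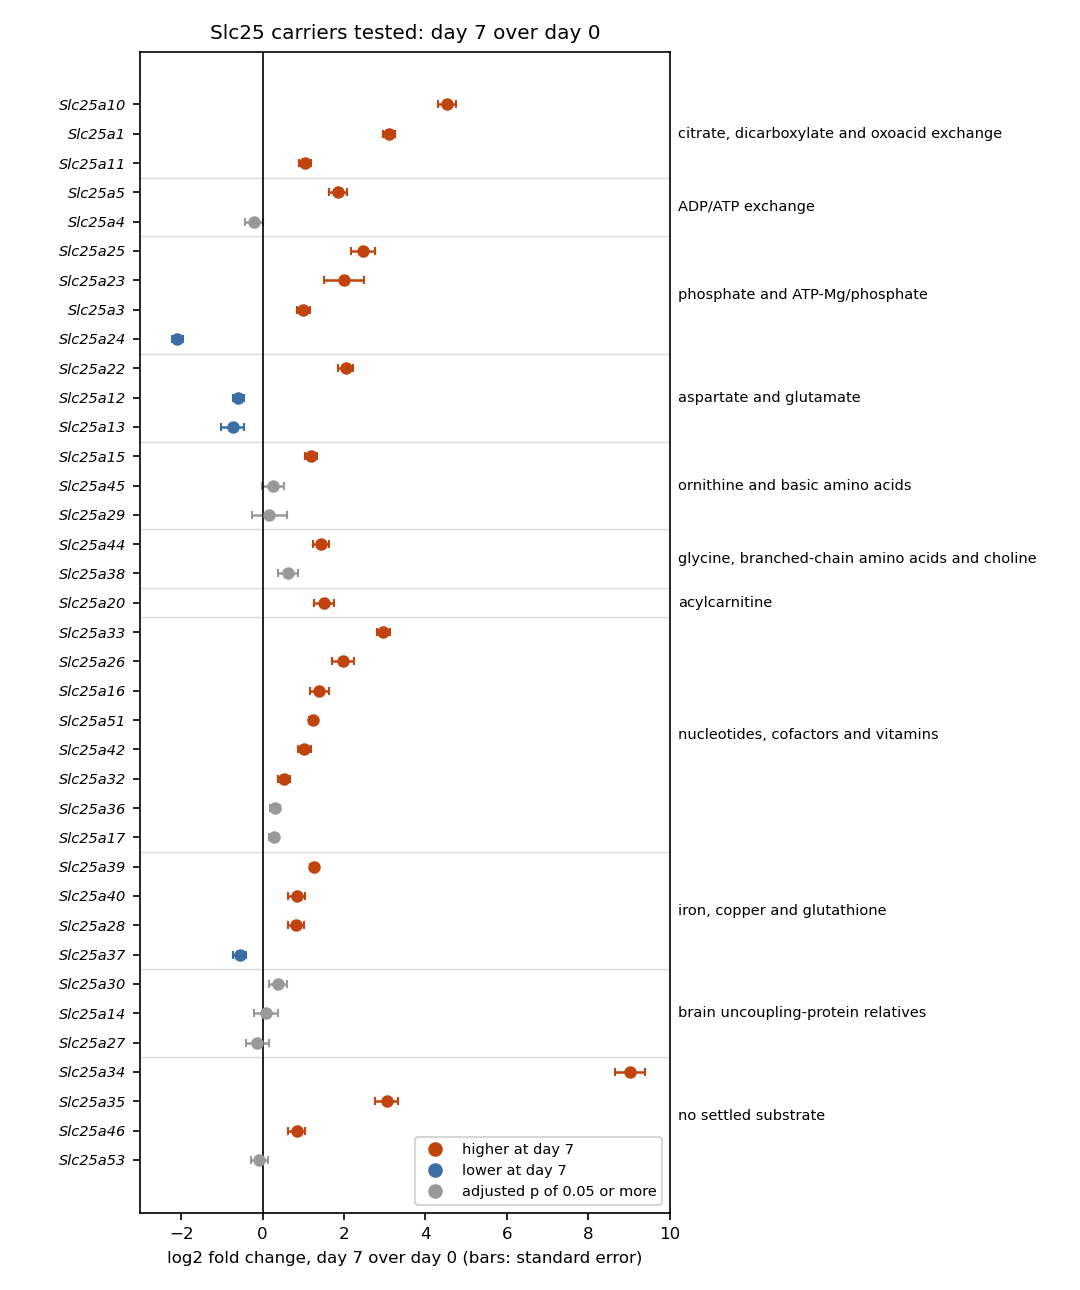
Log2 fold change of 37 of the 38 tested carriers, day 7 over day 0 (x axis), with standard errors as bars, ordered by substrate group (right). Red points passed the threshold upward (23), blue downward (4) and grey did not pass (10); all 3 tested carriers of citrate, dicarboxylates and oxoacids lie on the right, and Slc25a24 lies farthest to the left.

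Carriers of citrate, dicarboxylates and oxoacids rose together. All 3 tested members were higher at day 7, with a median log2 fold change of 3.10. Slc25a1, the citrate carrier, had 232, 279 and 301 CPM at day 7, against 32.4, 30.0 and 32.1 CPM at day 0. Every day 7 library was far above every day 0 library, a log2 fold change of 3.10 ± 0.14 (SE; edgeR adjusted p = 5.01e-06). Slc25a10, the dicarboxylate carrier, which exchanges malate or succinate for phosphate, had 167, 206 and 273 CPM at day 7, against 8.68, 10.4 and 8.76 CPM at day 0. Its log2 fold change was 4.53 ± 0.22 (edgeR adjusted p = 5.87e-06), the second largest in the family. Slc25a11, the oxoglutarate carrier of the malate-aspartate shuttle, had 58.0, 53.7 and 39.8 CPM at day 7, against 24.4, 25.3 and 23.7 CPM at day 0. The groups stood apart, at a log2 fold change of 1.05 ± 0.15 (edgeR adjusted p = 0.000589). Slc25a21, the oxoadipate carrier, had 0 counts in sum at day 7 and 1 at day 0 and was not tested.

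ADP/ATP exchange was split between its carriers. Slc25a5, the isoform best known from growing cells, had 357, 199 and 217 CPM at day 7, against 71.1, 67.4 and 74.9 CPM at day 0. It rose by a log2 fold change of 1.86 ± 0.23 (edgeR adjusted p = 0.000292), and the lowest day 7 library was above the highest of day 0. Its estimated counts were close to whole numbers, such as 810.99 in day 0 replicate 1 and 6304.969 in the first day 7 column. Fractions were larger for Slc25a36, such as 728.798 in day 0 replicate 1. Whether reads were divided between Slc25a5 and similar sequences was not tested, so its level carries that uncertainty. Slc25a4, the isoform of heart and skeletal muscle, had 182, 207 and 111 CPM at day 7, against 204, 185 and 194 CPM at day 0. The groups overlapped, at a log2 fold change of -0.22 ± 0.22 (edgeR adjusted p = 0.417), which was 0.01 without the third day 7 column. Slc25a31, the isoform of the testis, had no counts.

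Among phosphate and ATP-Mg/phosphate carriers 3 of 4 tested members rose and 1 fell. Slc25a3, which imports the phosphate used by ATP synthase, had 212, 195 and 144 CPM at day 7, against 91.1, 94.8 and 89.0 CPM at day 0, a log2 fold change of 1.0 ± 0.16 (edgeR adjusted p = 0.000984). The ATP-Mg/phosphate carriers load adenine nucleotides into the matrix and are switched by calcium. Slc25a25 had 41.6, 19.3 and 24.0 CPM at day 7, against 5.61, 4.78 and 5.0 CPM at day 0, so that all day 7 libraries were higher, by a log2 fold change of 2.48 ± 0.30 (edgeR adjusted p = 0.000248). Slc25a24 went the other way, with 14.6, 18.5 and 13.8 CPM at day 7, against 65.4, 68.9 and 66.4 CPM at day 0. Its log2 fold change of -2.09 ± 0.13 (edgeR adjusted p = 1.32e-05) was the largest decrease in the family. Slc25a23 had 5.72, 3.36 and 12.9 CPM at day 7, against 2.11, 1.37 and 1.92 CPM at day 0. Its log2 fold change was 2.0 ± 0.49 (edgeR adjusted p = 0.00882) and 1.39 without the third day 7 column, which was its highest library.

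**Figure D2:**
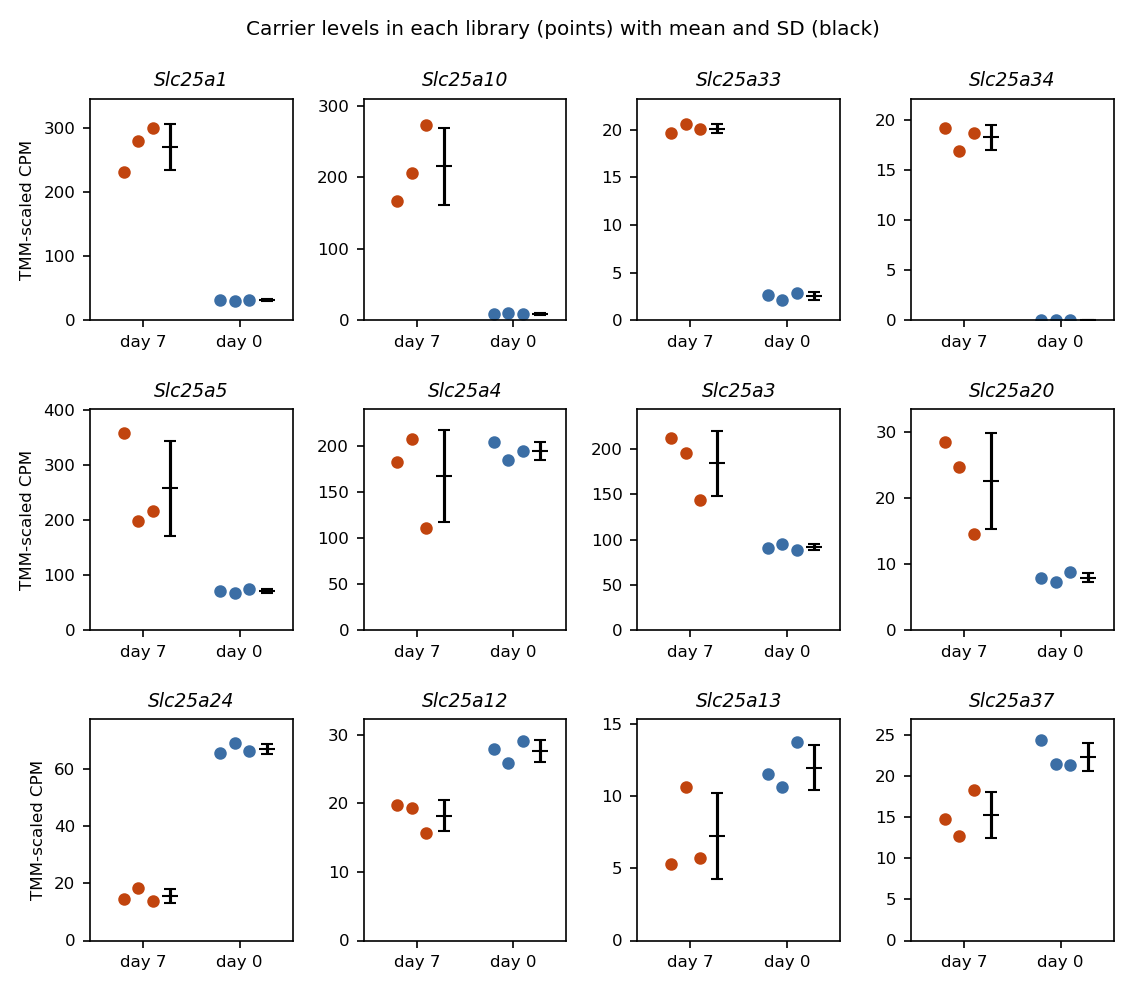
TMM-scaled CPM (y axes, each starting at 0) of 12 carriers in every library, day 7 in red and day 0 in blue, with mean and SD of 3 libraries in black. Slc25a4 overlaps between the days, Slc25a5 does not, and the second day 7 library of Slc25a13 nearly touches the lowest of day 0.

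Carriers of aspartate and glutamate did not move together: 1 of 3 tested rose and 2 fell, with a median log2 fold change of -0.59. Slc25a22, a glutamate carrier, had 52.7, 36.4 and 57.6 CPM at day 7, against 13.1, 11.8 and 10.8 CPM at day 0, a log2 fold change of 2.04 ± 0.19 (edgeR adjusted p = 6.87e-05). Slc25a12 and Slc25a13, the aspartate/glutamate carriers aralar and citrin, feed the malate-aspartate shuttle and are activated by calcium. Slc25a12 had 19.7, 19.2 and 15.6 CPM at day 7, against 27.9, 25.9 and 29.0 CPM at day 0, and fell by 0.59 ± 0.13 on the log2 scale (edgeR adjusted p = 0.00457). Slc25a13 had 5.33, 10.7 and 5.70 CPM at day 7, against 11.6, 10.7 and 13.8 CPM at day 0. Its second day 7 library lay just under the lowest day 0 library, and the call was marginal, at a log2 fold change of -0.74 ± 0.28 (edgeR adjusted p = 0.049). It was lost in 5 of the 6 fits that left out 1 library and kept without the second day 7 column, at log2 fold changes of -1.13 to -0.53. Slc25a18, the second glutamate carrier, had no counts.

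In the amino acid groups, carriers of ornithine and basic amino acids counted 1 member higher of 3 tested, and those of glycine, branched-chain amino acids and choline 1 of 2. With so few members these counts cannot be set apart from the share over all genes, 30.8% higher. Slc25a15, the ornithine carrier, had 15.6, 15.9 and 17.9 CPM at day 7, against 8.42, 6.90 and 6.34 CPM at day 0, a log2 fold change of 1.19 ± 0.16 (edgeR adjusted p = 0.000393). Slc25a29, a carrier of basic amino acids, had 2.38, 1.83 and 5.70 CPM at day 7, against 2.11, 3.36 and 2.92 CPM at day 0. These values overlap, and its log2 fold change of 0.17 was -0.39 without the third day 7 column and -0.05 with total-count scaling. Slc25a45 averaged 3.29 ± 0.83 CPM at day 7 and 2.72 ± 0.56 CPM at day 0 (SD, n = 3 each), a log2 fold change of 0.25 (edgeR adjusted p = 0.448). Slc25a44, the carrier of branched-chain amino acids known from brown fat, averaged 36.9 ± 9.69 CPM at day 7 and 13.7 ± 0.79 CPM at day 0, a log2 fold change of 1.44 (edgeR adjusted p = 0.000415). Slc25a38, a glycine carrier needed for haem synthesis, averaged 4.95 ± 1.47 CPM at day 7 and 3.15 ± 0.46 CPM at day 0 without passing the threshold (edgeR adjusted p = 0.0629). Slc25a48, which is linked to choline, had no counts. Slc25a20, the carnitine/acylcarnitine carrier that brings long-chain fatty acids in for oxidation, had 28.5, 24.7 and 14.5 CPM at day 7, against 7.89, 7.33 and 8.76 CPM at day 0. The groups stood apart, at a log2 fold change of 1.51 ± 0.25 (edgeR adjusted p = 0.0012).

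Carriers of nucleotides, cofactors and vitamins rose in 7 of 9, with none lower and a median log2 fold change of 1.25. Slc25a33, a carrier of pyrimidine nucleotides, had 19.6, 20.6 and 20.1 CPM at day 7, against 2.72, 2.11 and 2.92 CPM at day 0, a log2 fold change of 2.97 ± 0.16 (edgeR adjusted p = 9.54e-06). Slc25a36, the other pyrimidine nucleotide carrier, had 83.9, 65.1 and 72.1 CPM at day 7, against 63.9, 62.1 and 53.5 CPM at day 0. Its groups were apart by a narrow margin, the log2 fold change was 0.30 (edgeR adjusted p = 0.0749), and the threshold was passed without the second day 7 column, at 0.38 (edgeR adjusted p = 0.0397). The S-adenosylmethionine carrier Slc25a26 had a log2 fold change of 1.98 ± 0.27, Slc25a16, a carrier tied to coenzyme A, 1.39 ± 0.23, the NAD carrier Slc25a51 1.25 ± 0.10, and the coenzyme A carrier Slc25a42 1.03 ± 0.16. These 4 had edgeR adjusted p-values of 3.77e-05 to 0.00133. Slc25a32, the carrier of folate and flavin, reached only 0.52 ± 0.15 (edgeR adjusted p = 0.0194). That call was lost in 3 fits without 1 library (the first day 7 column, day 0 replicate 1 or day 0 replicate 3), at 0.40 to 0.49, and with total-count scaling, at 0.30. Slc25a17, a carrier of the peroxisome, averaged 25.8 ± 1.31 CPM at day 7 and 21.4 ± 0.70 CPM at day 0, at the edge of the threshold (edgeR adjusted p = 0.0501). It passed without the second day 7 column (edgeR adjusted p = 0.0452) and without the third (edgeR adjusted p = 0.0381).

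Iron and glutathione carriers rose in 3 of 4 and fell in 1. Slc25a39, a glutathione importer, had 141, 128 and 122 CPM at day 7, against 53.6, 53.8 and 54.8 CPM at day 0, a log2 fold change of 1.27 ± 0.10 (edgeR adjusted p = 3.82e-05). Slc25a40, its close relative, had 17.2, 17.4 and 11.1 CPM at day 7, against 8.95, 7.77 and 9.18 CPM at day 0, a log2 fold change of 0.83 ± 0.20 (edgeR adjusted p = 0.00736). The iron importers moved in opposite directions. Slc25a28, mitoferrin-2, the form of non-erythroid cells, had 11.7, 10.7 and 12.6 CPM at day 7, against 8.42, 5.65 and 5.76 CPM at day 0, a log2 fold change of 0.82 ± 0.19 (edgeR adjusted p = 0.007). Slc25a37, mitoferrin-1, the form of developing red cells, had 14.8, 12.7 and 18.3 CPM at day 7, against 24.4, 21.5 and 21.4 CPM at day 0. It fell by 0.56 ± 0.16 on the log2 scale (edgeR adjusted p = 0.016), a call that was lost without day 0 replicate 1, at a log2 fold change of -0.51.

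Members with no settled substrate held the largest increase of the family. Slc25a34 had 19.2, 16.9 and 18.7 CPM at day 7, against 0, 0.0621 and 0 CPM at day 0. That is 643 counts in sum at day 7 and 1 count, in replicate 2, at day 0, a ratio of 728.8 with a 95% counting interval of 130.3 to 28830. Slc25a35, a relative of Slc25a34, had 7.65, 12.2 and 11.0 CPM at day 7, against 0.965, 1.55 and 1.08 CPM at day 0, a log2 fold change of 3.05 ± 0.27 (edgeR adjusted p = 6.42e-05). Slc25a46, a protein of the outer membrane that takes part in mitochondrial shape, averaged 49.8 ± 15.6 CPM at day 7 and 28.0 ± 0.59 CPM at day 0, a log2 fold change of 0.84 ± 0.20 (edgeR adjusted p = 0.00834). With total-count scaling its log2 fold change was 0.63 and did not pass. Slc25a53 did not pass, at 2.92 ± 0.46 CPM at day 7 and 3.10 ± 0.14 CPM at day 0.

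The 3 relatives of uncoupling proteins that were first found in brain and kidney did not pass the threshold. Slc25a30 had 7.37, 5.90 and 5.02 CPM at day 7, against 5.09, 5.41 and 3.67 CPM at day 0. Slc25a14 had 2.21, 2.34 and 1.49 CPM at day 7, against 2.28, 1.43 and 2.17 CPM at day 0. Both overlap between the days, as did Slc25a27, with 1.37 ± 0.31 CPM at day 7 and 1.54 ± 0.18 CPM at day 0. The edgeR adjusted p-values of these 3 were 0.169 to 0.833.

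Of the 9 members that were not tested, Slc25a47 had 22 counts at day 7 and 15 at day 0, Slc25a2 had 10 and 7, and Slc25a21 had 0 and 1. Slc25a18, Slc25a31, Slc25a41, Slc25a43, Slc25a48 and Slc25a54 had no count in any library, which allows up to 0.17 to 0.407 CPM per library at day 7 and 0.186 to 0.263 CPM at day 0 (a limit of 3 counts, counting error only). Several of these lie beside a member that was read. The annotation places 4 pairs of members within 50 kb of each other, on GRCm38. Slc25a54 (chromosome 3, 109080469 to 109116687) ends 6461 bases before Slc25a24 (109123149 to 109168457), and Slc25a41 (chromosome 17, 57032773 to 57041654) ends 2056 bases before Slc25a23 (57043711 to 57059863). Slc25a43 (chromosome X, 36743659 to 36777202) ends 18448 bases before Slc25a5 (36795651 to 36798807). Slc25a29 (chromosome 12, 108825873 to 108835883) lies 162 bases from Slc25a47 (108836046 to 108856815), on opposite strands. In the first 3 pairs a gene with 0 counts lay beside a neighbour with 229 to 9857.9 counts over the day 7 libraries.

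Some members share exonic sequence with a gene on the opposite strand, and whether the counting used strand is not given in the sources used here. Slc25a35 shares 1151 bases with Rangrf, which had 158.9 counts in all, Slc25a25 shares 379 bases with Naif1, with 644 counts, and Slc25a11 shares 189 bases with Rnf167, with 1089 counts. Slc25a26, with 279 counts in sum at day 7 and 78 at day 0, shares 144 bases with Lrig1, which had 15489. The part of these overlaps in the levels was not tested.

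Ratios of related carriers within a library do not depend on how libraries are scaled, so pairs with the same or a similar substrate were compared in this way (log2 ratio of counts plus 0.5; exact two-sided permutation test, whose smallest p with 3 libraries a day is 0.1). Of 11 pairs listed 10 could be computed, and the libraries of the 2 days did not overlap in 7 of them. Levels of single genes did not overlap for 68.3% of all genes tested, so the count of 7 says little about the pairs. It includes Slc25a35 over Slc25a34, whose direction was largely fixed because Slc25a34 passed the filter only through day 7. Slc25a4 over Slc25a5 had log2 ratios of -0.97, 0.06 and -0.96 at day 7, against 1.52, 1.46 and 1.38 at day 0. Counts of Slc25a4 were thus above those of Slc25a5 in every day 0 library, and at day 7 below them in the first column and the third and slightly above in the second column, a difference of -2.07 (exact p = 0.1). Slc25a25 over Slc25a24 had log2 ratios of 1.51, 0.06 and 0.79 at day 7, against -3.53, -3.84 and -3.72 at day 0, a difference of 4.48 (exact p = 0.1), or 22.4-fold. In counts the order changed sides: Slc25a25 had more in all 3 day 7 libraries and Slc25a24 more in all 3 day 0 libraries. The order at day 7 depends on gene length. Per kilobase of exon Slc25a25 averaged 3.603 ± 1.493 CPM and Slc25a24 4.566 ± 0.73 CPM at day 7 (SD), within their spread. With transcript length Slc25a25 was the higher at day 7. At day 0 Slc25a24 was the higher with either length. Slc25a10 over Slc25a11 also changed sides in counts. Its log2 ratios were 1.53, 1.94 and 2.78 at day 7, against -1.48, -1.28 and -1.43 at day 0, a difference of 3.48 (exact p = 0.1).

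The mitoferrins kept their order in counts alone, while closing up. Slc25a37 over Slc25a28 had log2 ratios of 0.33, 0.25 and 0.54 at day 7, against 1.53, 1.92 and 1.88 at day 0, a difference of -1.40 (exact p = 0.1). Per kilobase of exon Slc25a37 averaged 3.72 ± 0.28 CPM and Slc25a28 1.76 ± 0.42 CPM at day 0 (SD). At day 7 Slc25a37 was no longer the higher, at 2.54 ± 0.47 CPM per kb against 3.12 ± 0.26 for Slc25a28. With transcript length these day 7 levels were 3.66 and 7.61 CPM per kb. Slc25a33 over Slc25a36 had -2.10, -1.66 and -1.84 at day 7, against -4.53, -4.86 and -4.18 at day 0, a difference of 2.66 (exact p = 0.1). Slc25a36 had more counts in every library, but the order at day 7 depends on gene length. Per kilobase of exon Slc25a33 averaged 10.65 CPM and Slc25a36 7.685 CPM at day 7, against 1.369 and 6.236 CPM at day 0. With transcript length Slc25a36 stayed higher at day 7, at 14.1 CPM per kb against 10.65 for Slc25a33. Slc25a39 over Slc25a40 shifted least of the separated pairs, by 0.47 (exact p = 0.1), to 3.12 ± 0.30 at day 7, against 2.65 ± 0.12 at day 0 (SD, n = 3 each). Slc25a35 over Slc25a34 was -0.85 ± 0.44 at day 7, against 4.46 ± 0.34 at day 0. The difference of -5.31 was -3.77 with 2 counts added instead of 0.5, since Slc25a34 had almost no counts at day 0. Because Slc25a34 passed the filter only through day 7, no p is given for this pair. The other 3 pairs overlapped. The difference was -0.19 for Slc25a13 over Slc25a12 (exact p = 0.7), 0.32 for Slc25a30 over Slc25a14 (exact p = 0.5) and 1.10 for Slc25a15 over Slc25a29 (exact p = 0.2).

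**Figure D3:**
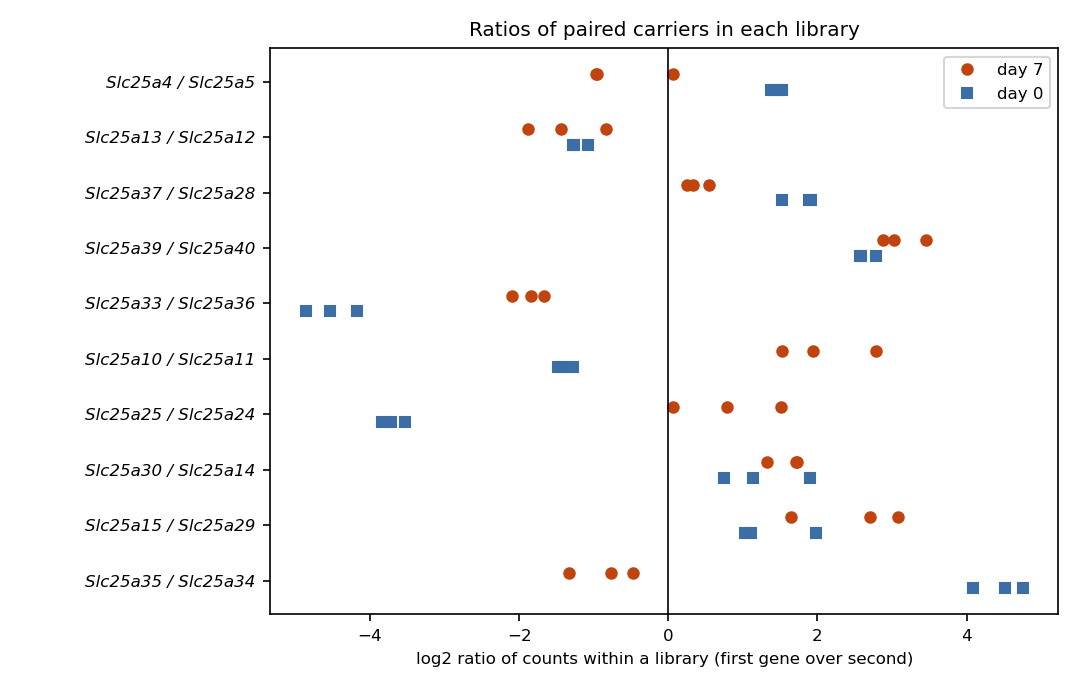
Log2 ratio of counts of the first over the second carrier of each pair (x axis), 1 point per library, day 7 as red circles and day 0 as blue squares; the line at 0 marks equal counts. The days do not overlap in 7 of the 10 pairs, and Slc25a10 over Slc25a11, Slc25a25 over Slc25a24 and Slc25a35 over Slc25a34 lie on opposite sides of 0. Slc25a34 passed the filter only through day 7, so the direction of its pair was largely fixed.

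The family as a whole took 0.184 ± 0.035% of all counts at day 7 and 0.0968 ± 0.0041% at day 0 (SD, n = 3 each), a ratio of 1.9. Its summed level was 1981 ± 110 CPM at day 7 and 891 ± 17.8 CPM at day 0. Levels of different carriers were compared as CPM per kilobase of exon. At day 7 Slc25a5 was highest, at 157 ± 52.7 CPM per kb, followed by Slc25a1 at 125 ± 16.4, Slc25a4 at 71.0 ± 21.2, Slc25a10 at 62.5 ± 15.5 and Slc25a39 at 47.3 ± 3.48 CPM per kb. Slc25a5 and Slc25a1 did not differ beyond their spread, nor did Slc25a4, Slc25a10 and Slc25a39 among themselves. At day 0 the order was Slc25a4 at 82.6 ± 3.98, Slc25a5 at 43.2 ± 2.27, Slc25a39 at 19.6 ± 0.23, Slc25a24 at 19.5 ± 0.52 and Slc25a3 at 16.5 ± 0.53 CPM per kb, where only Slc25a39 and Slc25a24 were level. Slc25a10 stood 4th at day 7 and 17th at day 0, and Slc25a24 20th at day 7 and 4th at day 0. The length used matters for Slc25a3: with the length of the transcript that has the longest coding sequence it stood 3rd at day 7 and 2nd at day 0, instead of 6th at day 7 and 5th at day 0.

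The make-up of the family shifted accordingly. Carriers of citrate, dicarboxylates and oxoacids made up 25.3, 33.3 and 37.4% of the family's CPM per kb at day 7, against 10.3, 10.7 and 10.3% at day 0. Slc25a1 alone made up 18.9 ± 3.68% at day 7 and 5.26 ± 0.11% at day 0, and Slc25a10 9.49 ± 2.89% at day 7 and 0.973 ± 0.12% at day 0. ADP/ATP carriers made up 33.8 ± 6.39% at day 7 and 45.5 ± 1.05% at day 0, where Slc25a4 made up 10.6% at day 7 and 29.9% at day 0 and Slc25a5 23.2% at day 7 and 15.6% at day 0. Phosphate and ATP-Mg/phosphate carriers made up 6.38 ± 0.68% at day 7 and 13.4 ± 0.61% at day 0, or 14.7% and 21.5% with transcript length. The share of nucleotide, cofactor and vitamin carriers overlapped between the days, at 11.1 ± 0.90% at day 7 and 11.4 ± 0.32% at day 0. Day 7 libraries differed among themselves: the first had the most Slc25a5, 30.1% of the family, and the third the most Slc25a10, 12.5%. These shares sum to a fixed total, so a gain of one carrier lowers the share of the others.

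**Figure D4:**
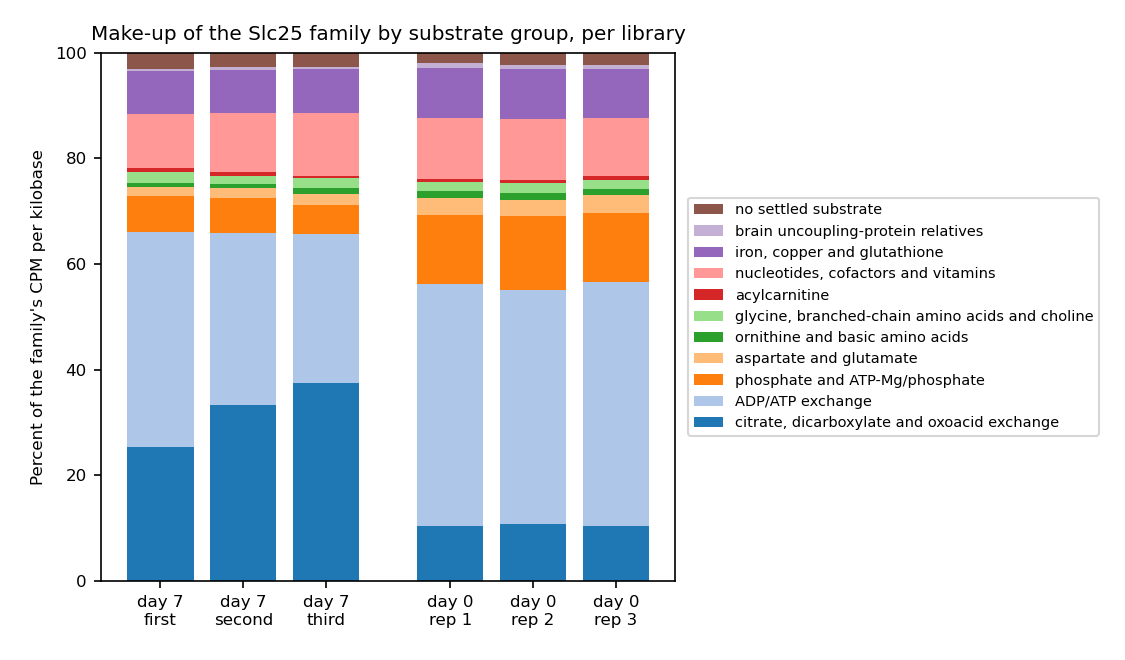
Percent of the family's CPM per kilobase (y axis) taken by each of the 11 substrate groups in every library, day 7 on the left and day 0 on the right. The lowest, dark blue block, carriers of citrate, dicarboxylates and oxoacids, takes 25.3 to 37.4% at day 7 and 10.3 to 10.7% at day 0.

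A few proteins of the same superfamily carry other symbols and are not counted above. Ucp1, the uncoupling protein of brown fat, had no counts in any library. Ucp2, a carrier of the same branch found in many tissues, averaged 109 ± 18.6 CPM at day 7 and 39.5 ± 3.83 CPM at day 0 (SD, n = 3 each; edgeR adjusted p = 0.000112). Ucp3, the uncoupling protein of skeletal muscle, had 4.36, 3.05 and 7.60 CPM at day 7 and no counts at day 0, at least 61.6-fold higher taking 3 counts over the 3 day 0 libraries as the floor. Ucp3 passed the filter only through day 7, so its direction was fixed. Mtch2, an insertase of the outer membrane, averaged 158 ± 36.0 CPM at day 7 and 51.1 ± 3.92 CPM at day 0, a log2 fold change of 1.63. Its relative Mtch1 averaged 87.0 ± 10.8 CPM at day 7 and 112 ± 4.09 CPM at day 0, a log2 fold change of -0.37 (edgeR adjusted p = 0.0309), a call lost when any 1 day 0 library was left out, at -0.40 to -0.35.

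Enzymes and channels that supply or use the carriers' substrates were described by route, from 9 lists with 108 genes, of which 101 were tested. Of these 75 were higher and 12 lower. Over all genes tested 30.8% were higher and 29.2% lower, the shares beside which the counts of each route are to be read. In the route from pyruvate entry through citrate to fatty acids 13 of 13 were higher, with a median log2 fold change of 2.62. Fasn, fatty acid synthase, averaged 2196 ± 377 CPM at day 7 and 54.8 ± 4.28 CPM at day 0, and Pcx, pyruvate carboxylase, 1141 ± 152 CPM at day 7 and 43.7 ± 3.28 CPM at day 0. In the malate-aspartate and glycerol phosphate shuttles 7 of 9 were higher and 2 lower, with a median of 1.03. Gpd1, glycerol-3-phosphate dehydrogenase of the cytosol, averaged 792 ± 318 CPM at day 7 and 0.541 ± 0.18 CPM at day 0, and passed the filter only through day 7. Mdh1, cytosolic malate dehydrogenase, had a log2 fold change of 2.58. Of the transaminases that flank the aspartate/glutamate carriers, Got2 had -0.41 and Got1 0.73, but both calls were lost in fits without 1 library. Got2 lost it without day 0 replicate 1 or 3, at -0.42 and -0.40, and Got1 kept it only without the third day 7 column, with 0.55 to 0.82 in the other 5 fits.

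In the carnitine shuttle, which feeds Slc25a20, 4 of 8 genes were higher and 2 lower. Acsl1, which activates long-chain fatty acids, had a log2 fold change of 6.83 ± 0.24 and Crat, carnitine acetyltransferase, 3.65 ± 0.18. Of the 3 genes of the carnitine palmitoyltransferase 1 family 2 were lower. Cpt1a averaged 10.1 ± 1.56 CPM at day 7 and 59.6 ± 3.88 CPM at day 0, and Cpt1c, the brain form, 3.29 ± 0.81 CPM at day 7 and 21.1 ± 0.73 CPM at day 0. Cpt1b, the muscle form, averaged 1.38 ± 1.04 CPM at day 7 and 0.827 ± 0.68 CPM at day 0 and did not pass (edgeR adjusted p = 0.417). In the catabolism of branched-chain amino acids 7 of 8 were higher, led by Dbt at 4.01 ± 0.18 and the mitochondrial transaminase Bcat2 at 3.85 ± 0.17. The cytosolic transaminase Bcat1 was lower, at -3.52 ± 0.14. The genes around ornithine, arginine and proline were the only route with a median below 0, at -0.36, with 2 of 7 higher and 3 lower. With 7 genes these counts cannot be set apart from the shares over all genes, 30.8% higher and 29.2% lower. Ass1, argininosuccinate synthase, had a log2 fold change of -2.70 ± 0.34, ornithine decarboxylase, Odc1, -0.91 ± 0.13 and argininosuccinate lyase, Asl, 1.33 ± 0.21.

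The remaining routes leaned upward. Iron-sulfur cluster and haem genes counted 9 of 13 higher and none lower, with Alas1, the first enzyme of haem synthesis, at 2.91 ± 0.19 and the cysteine desulfurase Nfs1 at 1.97 ± 0.16. Genes of cofactors, folate and mitochondrial nucleotides counted 11 of 17 higher and 3 lower, with the pantothenate kinases Pank3 at 3.80 ± 0.14 and Pank1 at 3.33 ± 0.22 and the folate enzyme Mthfd2l at -0.87 ± 0.13. Glutathione genes counted 7 of 8 higher, among them glutathione synthetase, Gss, at 1.60 ± 0.24 and Afg3l2, a subunit of the protease known to turn over Slc25a39, at 1.48 ± 0.16. ATP synthase subunits, porins and cyclophilin D counted 17 of 20 higher and 1 lower. Atp5b stood at 2.29 ± 0.15 and Atp5c1 at 1.81 ± 0.24, while Atpif1, the inhibitor of ATP synthase, was at -0.43 ± 0.16, a call kept without the second day 7 column and lost without any other library, at -0.49 to -0.34. The creatine kinases Ckb, Ckmt1 and Ckmt2 were not analysed here. Without the third day 7 column, glutathione peroxidase 1, Gpx1, at -0.89 and ornithine aminotransferase, Oat, at -0.55 passed as lower, and the folate enzyme Mthfd2 at 0.61 and the porin Vdac3 at 0.49 as higher (edgeR adjusted p = 0.00017 to 0.00277). Bckdk, the kinase of the branched-chain dehydrogenase, was called higher but lost the call without any 1 library other than the first day 7 column, at 0.32 to 0.42. Values in these routes are log2 fold changes with standard errors unless given as CPM, and every change named without a remark on its call passed the edgeR threshold.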

How the data were processed

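RNA from 3T3-L1 cells was sequenced from Illumina stranded total RNA libraries, per the labels' protocols. The authors used Salmon 1.9.0, STAR 2.7.10a and Trim Galore 0.6.7 with GRCm38, per the submitters' processing notes. Not given in the sources used here is what each tool did or whether rows were filtered. The deposited values are estimated counts for each gene in each library, whose totals differ between libraries. All 3 day 7 columns are headed as replicate 1, so they are named by position (the first, the second, the third). Another 10 value columns beside the table were not used. Estimated counts were rounded, passed through filterByExpr (a minimum of 10 counts per library in enough libraries, 15 in total) and scaled by TMM, with factors of 0.778 to 1.14. Days were compared with the quasi-likelihood test of edgeR 4.0.16 in R 4.3.3, with group as the only factor and Benjamini-Hochberg adjustment over 12354 genes.

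Standard errors are the size of the log2 fold change over the square root of F, and the biological coefficient of variation was 0.186. Pairs of day 0 libraries differed by chi-square values per gene of 6.38 to 20.29. Pairs of day 7 libraries differed by 49.76 to 83.85, the most between the first column and the second. All lay above counting noise, so no library was treated as a second deposit of another. Levels per kilobase use exon length from GENCODE M21. Other settings tried were scaling by RLE, by upper quartile or by total counts, no filter, 10 CPM in 3 libraries, DESeq2 1.42.0, limma-voom with limma 3.58.1, removal of mitochondrially encoded genes and the 10 most abundant rows, each library left out, a pseudocount of 2 and, added after the data were seen, another gene length. Outside those 10 rows 3969822 to 9459808 counts were left per library, so members near the filter rest on few counts. Intervals and floors cover counting error only.

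Members, substrate groups, pairs, routes and markers were chosen with earlier results of these data known. Values in each library are given for the 5 largest increases and the 5 largest decreases past the threshold among members averaging at least 5 CPM (4 fell), the 5 highest per kilobase, members of the pairs tested, Slc25a1, Slc25a3 and Slc25a20. In each route the text names the 2 strongest changes in the prevailing direction and the strongest opposite one. Cpt1a, Odc1 and any further gene beyond that rule were named after their values were seen. Single values of 1 member and of other genes on the lists are not reported here, while counts over groups include them.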

Additional observations from a re-analysis of the deposited data

How the results depend on the processing

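No paired analysis was possible because the day 7 columns all carry replicate number 1, so the planned fit with the replicate number as a block was not run. Over the alternatives, 481 of the members' log2 fold changes kept direction and side of the threshold, 12 lost the threshold, 5 gained it and 9 changed sign, none of them a called member. The count of members higher was 21 to 26 and that of members lower 2 to 4, lowest without day 0 replicate 1. With total counts alone 2355 of all genes were higher. Without mitochondrially encoded genes and the 10 most abundant rows, the family's per-length share was 2.24 times as high at day 7 as at day 0, against 1.70 with all rows. Sign changes among members with total counts alone were -0.15 for Slc25a14 and -0.05 for Slc25a29, which was -0.06 with limma-voom. Leaving out 1 library gave -0.13 to 0.23 for Slc25a14, -0.39 to 0.44 for Slc25a29, -0.40 to 0.01 for Slc25a4, -0.18 to 0.02 for Slc25a53 and -0.34 to 0.00 for Slc25a27. It gave -0.46 to 0.06 for the log2 ratio difference of Slc25a13 over Slc25a12. Among partner genes total counts alone gave -0.03 for Cpox and -0.14 for Dguok. Without 1 library Atp5g2 lay at -0.09 to 0.05, Crot at -0.12 to 0.06 and Pycr1 at -0.17 to 0.21. Apart from Slc25a12 and Slc25a13, which were called lower and are named here only for their ratio, none of these genes passed the threshold. The cause of the changes was not tested. Depth limits the members with few counts, such as Slc25a27 with 51 counts at day 7 and 61 at day 0.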
